A study of Mus musculus with 8 samples.

Results

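Polycomb and SWI/SNF genes encode subunits of chromatin complexes, and 33 of them were followed by name in sequencing tag counts from the mouse neural tube. All 33 symbols were among the 26608 listed in the files, and 29 passed the filter on low counts that left 11779 genes for testing. The 33 comprise 7 genes of the Polycomb repressive complex PRC2 and its partners, 9 of PRC1, 14 of SWI/SNF, and 3 of the related ISWI remodellers (Smarca1, Smarca5 and Cecr2). Tissue came from FVB mouse embryos at day 8.5 of gestation. It was laser-dissected from cryosections next to closure site 1, where the neural folds first meet: closed neural tube just behind the site and open neural tube just in front of it. The 4 groups were closed tube from diabetic dams (libraries 15 and 16), open tube from diabetic dams (13 and 14), closed tube from normal dams (11 and 12) and open tube from normal dams (09 and 10). The labels do not say how the dams became diabetic or from how many embryos each library was made. The p-values therefore measure only the spread between these libraries, which may be technical in the diabetic groups. The libraries of each normal group differed in the sex markers given below, so they were not repeats of the same RNA. Closed and open tube also differ in axial level, so that region and level cannot be told apart.

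Polycomb complexes keep developmental genes silent: PRC2 methylates a lysine of histone H3, and PRC1 binds that mark through its chromobox subunits, compacts chromatin and ubiquitinates histone H2A. SWI/SNF complexes use ATP to slide or evict nucleosomes and are often antagonists of Polycomb at the same genes. ISWI remodellers space nucleosomes. Several of these genes are known for neural tube closure in mice: embryos without Cecr2 often have, and some with reduced Smarca4 or Smarcc1 have, an open cranial neural tube, and Jarid2 mutants have neural tube defects on some strain backgrounds.

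Each library counted 1 short tag per transcript molecule, taken next to the CATG nearest its 3′ end, so a level here is the tag count scaled to the library total (CPM) and is not divided by transcript length. The labels name the tag kit but not the enzyme; CATG is the NlaIII site that tag protocols of this kind use. Across 18251 genes with a protein-coding transcript in both GENCODE M21 and RefSeq (build GRCm38), 73 of the 76 transcripts without a CATG (96.1%) belonged to genes with no count in any library. Of the 16756 genes with a full 27-base tag, 32.5% had no count, and of the 1419 whose last CATG lay closer to the annotated end than that, 40.9% had none. All 33 members had such a transcript, and 31 had a full tag. The sequences below are the tags that bear on how the levels can be read, from the last CATG (capitals) of the longest such transcript, 5′ to 3′. Ezh2 and Ezh1, and likewise Rbbp4 and Rbbp7, are paralogues whose tags can be told apart, while the last CATG of Smarcb1 and of Brd7 leaves 13 and 7 bases before the annotated end.
Ezh2: CATGtgcagctttctgttcaacttgaa
Ezh1: CATGcgctccagccgcccactcttggt
Rbbp4: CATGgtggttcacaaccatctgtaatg
Rbbp7: CATGaaagacgtgggctgtaaaaataa
Smarca2: CATGcgtgcagacacactacacacaca
Smarca5: CATGttaaatttgagataccatcattt
Smarcb1: CATGttcaatttc
Brd7: CATGcct

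Of the 31 full tags, 30 were found at a CATG of no other gene's transcripts. The exception was the Rbbp4 tag, which also stands in annotated transcripts of 9 other genes, among them Naip2, Pnpla6, Styx and Ube2d3. How tags that fit several genes were counted is not given in the sources used here, so the Rbbp4 level is uncertain. Smarca5, the ISWI ATPase required in early mouse embryos, has a full tag in no other gene's transcripts, 167 bases from the annotated end, and was listed at 0 in all 8 libraries. A count of 0 over the 65405280 counts of the 8 libraries allows a level of up to 0.0459 CPM, by counting error alone. It was 1 of 11446 listed genes without a count, and absence of its tag says nothing firm about the absence of its RNA.

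Libraries held 5041586 to 16655583 counts, and 9920 to 12924 genes had a count. Of the 10 neural progenitor markers, Sox1, Sox2, Nes, Pax6, Hes5, Cdh2 and Fabp7 were detected in every library. Msi1 was at 0 in libraries 13, 14, 11, 09 and 10, Olig2 in libraries 13 and 10, and Sox3 in library 09. The 10 markers summed to between 747 and 1130 CPM in 7 libraries. Diabetic open library 13 stood apart, with 181 CPM of neural markers and the highest sums of the mesoderm list (1710 CPM, 152 to 914 CPM elsewhere), the endothelium list (309 CPM, 26.4 to 137 CPM elsewhere) and the heart and endoderm list (180 CPM, 12.1 to 37.5 CPM elsewhere). Most of that last sum was Gata4 (87.7 CPM) and Gata6 (55.4 CPM), while Foxa2 of the same list was lowest in library 13 (7.69 CPM). Among heart markers, Nkx2-5 and Tnnt2 were at 0 in all 8 libraries. Primitive blood markers summed to 925 and 1010 CPM in diabetic open libraries 13 and 14. They summed to 210 CPM in diabetic closed library 16, and to at most 63.3 CPM in the other 5. Nearly all of this was Hba-x (891, 994 and 203 CPM in libraries 13, 14 and 16), while Hbb-y was at 0 in all 8 libraries. Xist, the RNA behind X inactivation, reached 297 CPM in library 12 (normal closed) and 301 CPM in library 10 (normal open). It had at most 4.27 CPM elsewhere. Y-linked Ddx3y stood at 0.444 CPM in library 12 and 0.882 CPM in library 10, and at 188 to 274 CPM elsewhere. Libraries 12 and 10 thus had the female pattern and every diabetic library the male one. Embryo sex was therefore not balanced between dams, and its part in diabetic against normal was not tested.

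The catalytic subunits of PRC2 were low and its scaffold was high in tags. Suz12, the scaffold, had 355 and 463 CPM in diabetic closed, 351 and 345 CPM in diabetic open, 399 and 352 CPM in normal closed, and 444 and 335 CPM in normal open libraries. The median was 354 CPM, and both diabetic closed libraries lay above both diabetic open ones, while each diabetic group overlapped the normal one of its region. Ezh2, the methyltransferase of dividing cells, had 29.2 and 35.9 CPM in diabetic closed, 37.3 and 25.8 CPM in diabetic open, 15.5 and 27.7 CPM in normal closed, and 22.8 and 26.6 CPM in normal open libraries. Its lowest value was in normal closed library 11. Both diabetic closed libraries lay above all 4 normal ones, while the diabetic open libraries lay on both sides of some of them. Eed, which reads the methyl mark, had 21.4 and 14.8 CPM in diabetic closed, 15.4 and 20.8 CPM in diabetic open, 15 and 9.33 CPM in normal closed, and 10.7 and 16.8 CPM in normal open libraries. The 4 core genes together summed to between 403 and 527 CPM per library, most of it Suz12.

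The second methyltransferase gene, Ezh1, spread more widely. It had 18.2 and 13.4 CPM in diabetic closed, 13.1 and 10.7 CPM in diabetic open, 5.70 and 50.3 CPM in normal closed, and 6.91 and 37.0 CPM in normal open libraries. Both the highest and the lowest values were from normal dams. The high pair were libraries 12 and 10, the same libraries that held Xist. Ezh1 lies on chromosome 11, and any part of embryo sex in its level was not tested.

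Among PRC2 partners, Jarid2, which helps bring PRC2 to DNA, had 33.7 and 43.5 CPM in diabetic closed, 30.2 and 43.2 CPM in diabetic open, 28.7 and 27.2 CPM in normal closed, and 35.6 and 42.3 CPM in normal open libraries. The 2 normal closed libraries were the lowest. Rbbp4, a histone-binding protein shared with several other complexes, was the most abundant member at 685 to 1150 CPM, and its X-linked paralogue Rbbp7 ranged from 41.3 to 85.9 CPM. In PRC1, the ubiquitin ligase gene Rnf2 ranged from 310 to 440 CPM and its paralogue Ring1 from 33.3 to 119 CPM, with the lowest Ring1 value in diabetic open library 13. Bmi1, a partner of these ligases, had 15.5 and 12.7 CPM in diabetic closed, 22.1 and 0.597 CPM in diabetic open, 9.08 and 5.03 CPM in normal closed, and 11.4 and 1.76 CPM in normal open libraries. Its highest and lowest levels were thus both in diabetic open tissue, in libraries 13 and 14. The chromobox gene Cbx2 ranged from 48.4 to 113 CPM, whereas Cbx8 reached at most 2.27 CPM, in 3 libraries with a count, and Cbx7 was listed at 0 throughout. The polyhomeotic genes, whose products chain PRC1 together, ranged from 69.2 to 120 CPM (Phc1), 58.2 to 116 CPM (Phc2) and 14.9 to 25.5 CPM (Phc3).

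In SWI/SNF, tags of the ATPase gene Smarca4 outnumbered those of the alternative ATPase gene Smarca2 in every library. Smarca4 ranged from 28.2 CPM in diabetic closed library 15 to 116 CPM in normal open library 10, with a median of 69.1 CPM. Of the 7 shared subunit genes, Smarcd1 stood at 417 to 551 CPM, the scaffold gene Smarcc1 at 94.0 to 168 CPM and Smarce1 at 48.6 to 110 CPM, and the other 4 were lower. Smarcc2, the paralogue of Smarcc1, had 12.8 to 25.6 CPM in 7 libraries and 0.119 CPM (1 count) in diabetic open library 14. Smarcd2 ranged from 0.529 to 18.5 CPM. Smarcd3, known for its part in heart development, had 18 and 3 counts in diabetic closed libraries 15 and 16 and none elsewhere. The core subunit gene Smarcb1 was at 2.47 to 8 CPM.

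Other subunits distinguish the 2 main forms of SWI/SNF. Arid1b, of the BAF form, ranged from 88.1 to 140 CPM, and Arid1a from 22.9 CPM in normal open library 09 to 105 CPM in normal open library 10. Of the PBAF form, Arid2 ranged from 386 to 595 CPM and Pbrm1 from 369 to 508 CPM. Brd7, the PBAF subunit with the short tag, was at 0 to 7.76 CPM. Among ISWI genes, the ATPase gene Smarca1 had 35.1 and 44.9 CPM in diabetic closed, 113 and 36.9 CPM in diabetic open, 8.73 and 49.0 CPM in normal closed, and 22.6 and 29.5 CPM in normal open libraries. Library 13 was far above the other 7. That library also had the highest sums of the mesoderm, endothelium, heart and endoderm, and surface ectoderm lists, and the lowest neural sum. Any part of these cell types in the Smarca1 level was not tested.

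**Figure D1:**
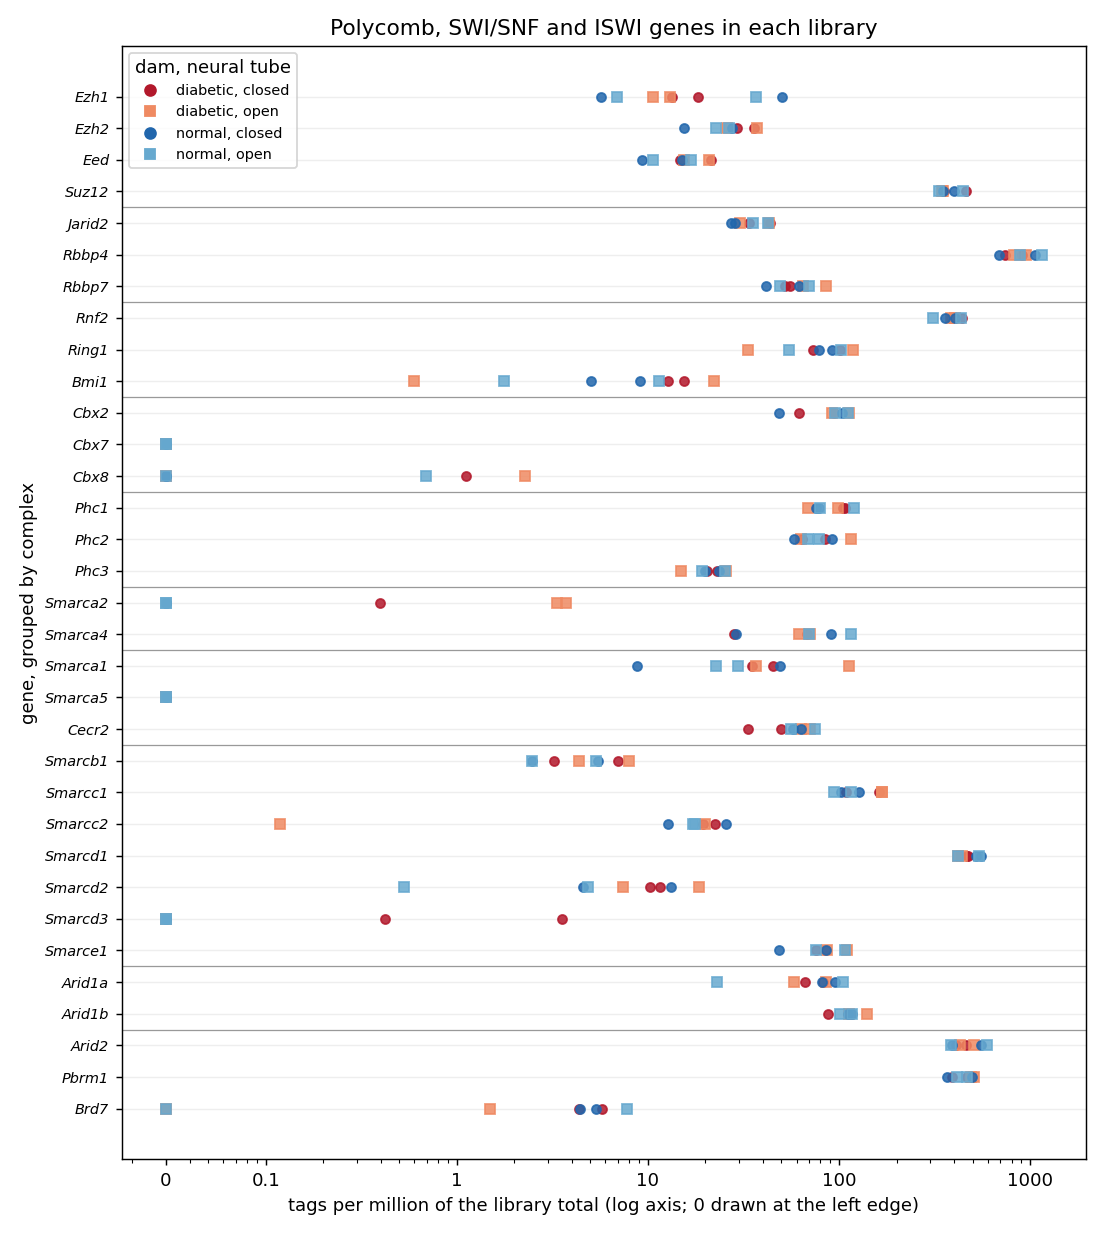
Level of each of the 33 genes in each of the 8 libraries, in CPM on a log axis, with 0 drawn at the left edge; colour gives the dam and shape the region. Suz12, Rnf2, Smarcd1, Arid2 and Pbrm1 form tight clusters between 310 and 595 CPM, while Bmi1, Smarcc2 and Smarcd2 each have a library far to the left, and Cbx7 and Smarca5 are at 0 in all.

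Of the 29 members tested, 12 had a highest library within 2-fold of the lowest, 4 of them within 1.5-fold (Smarcd1, Suz12, Pbrm1 and Rnf2). The ratio passed 5-fold for 7: Ezh1, Bmi1, Smarca1, Smarca2, Smarcc2, Smarcd2 and Brd7. Spread goes with level in these data. At a mean of 100 CPM or more, all 8 members and 56.7% of all 1816 genes stayed within 2-fold, and the median ratio was 1.48 for members and 1.90 for all genes. From 10 to under 100 CPM these figures were 4 of 16 members (25%), with a median of 2.32, against 10.9% of 5127 genes, with a median of 3.67. Under 10 CPM, 0 of 5 members and 0.207% of 4836 genes stayed within 2-fold.

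**Figure D2:**
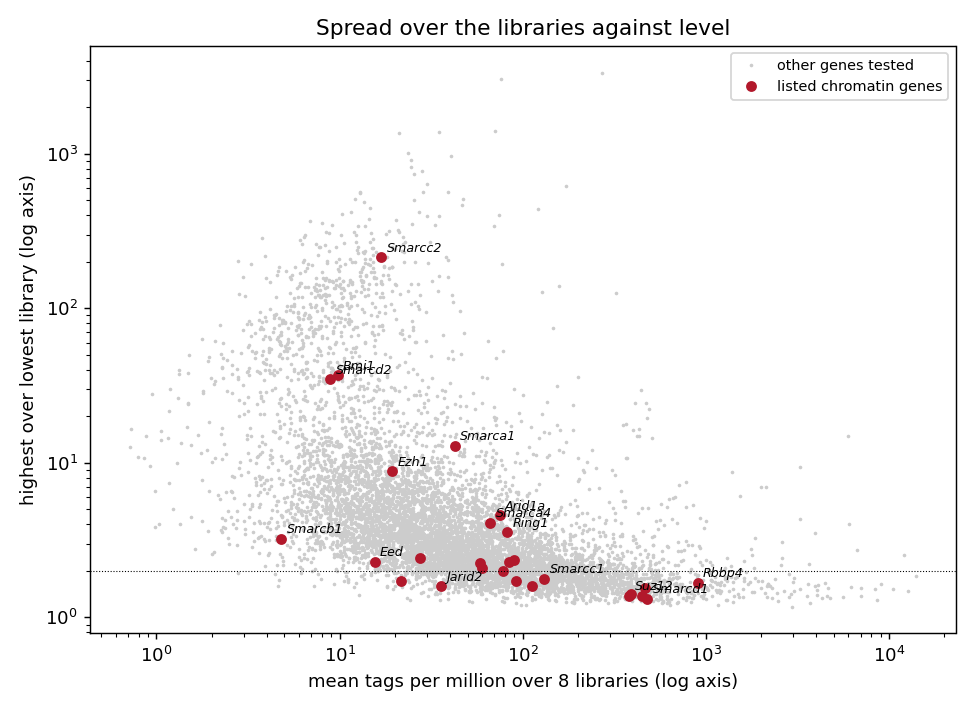
Ratio of the highest to the lowest library against the mean level of each gene, both on log axes, for tested genes with a count in every library; red points are the listed chromatin genes and the dotted line marks 2-fold. The abundant members Rbbp4, Suz12 and Smarcd1 lie under the line, and Smarcc2, Bmi1 and Smarcd2 are the highest red points.

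The first comparison set closed against open neural tube over both dams. No member had 4 closed libraries all above or all below the 4 open ones, and all 29 fold changes had intervals that include 0. Among members, 12 had a positive and 17 a negative log2 fold change, with a median of -0.04, beside a median of 0.07 over all 11779 genes, of which 55.5% were positive. The edgeR quasi-likelihood test called 0 members and 0 genes (0% of genes, smallest adjusted p = 1.00). Before adjustment, 0 members and 3.32% of all genes lay below 0.05, and DESeq2 called 0 members and 0.0764% of genes. Libraries did not overlap for 1.68% of genes on the higher side and 1.07% on the lower side.

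On the lower side the smallest p belonged to Cbx2, Cecr2 and Smarce1. Cbx2 had 61.7, 94.6, 48.4 and 104 CPM in closed libraries 15, 16, 11 and 12, against 91.5, 113, 95.2 and 112 CPM in open libraries 13, 14, 09 and 10. All 4 open values lay between 91.5 and 113 CPM, while the closed ones covered a wider range and overlapped them (log2 fold change -0.37, SE 0.28, edgeR adjusted p = 1.00). Cecr2, whose product partners the ISWI ATPases, had 33.3, 49.5, 63.2 and 57.2 CPM in closed and 63.0, 70.2, 55.8 and 75.0 CPM in open libraries. The 2 lowest were both from diabetic closed tissue (log2 fold change -0.36, SE 0.27, 95% interval -0.95 to 0.24, edgeR adjusted p = 1.00). Smarce1, a DNA-binding subunit, had 84.3, 75.8, 48.6 and 85.1 CPM in closed libraries 15, 16, 11 and 12, against 86.6, 110, 75.4 and 107 CPM in open libraries 13, 14, 09 and 10. It averaged 73.5 ± 17.1 CPM in closed and 94.9 ± 16.7 CPM in open libraries (SD, n = 4 each).

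On the higher side these were Smarcd1, Brd7 and Arid1a. Smarcd1 had 473, 465, 551 and 523 CPM in closed libraries 15, 16, 11 and 12, against 419, 439, 541 and 417 CPM in open libraries 13, 14, 09 and 10. Library 09 alone of the open ones reached the closed range (log2 fold change 0.19, SE 0.16, 95% interval -0.17 to 0.55). Brd7 had 4.36, 5.72, 5.34 and 4.44 CPM in closed and 1.5, 0, 0 and 7.76 CPM in open libraries, so that its open libraries lay on both sides of the closed ones. Its log2 fold change was 1.58 (SE 1.84), 3.96 without normal open library 10 and 0.93 without diabetic open library 14. Arid1a had 82.9, 66.8, 81.7 and 94.8 CPM in closed libraries 15, 16, 11 and 12, against 85.7, 58, 22.9 and 105 CPM in open libraries 13, 14, 09 and 10. The open libraries held both its highest and its lowest value. Arid1a averaged 81.6 ± 11.4 CPM in closed and 67.9 ± 35.7 CPM in open libraries (SD, n = 4 each). Its log2 fold change of 0.32 became -0.01 without normal open library 09.

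For the other genes with closure mutants and for the PRC2 core, the closed and open means were close beside their spread. Smarcc1 averaged 125 ± 26.7 CPM in closed and 136 ± 37.5 CPM in open libraries, and Jarid2 33.3 ± 7.37 and 37.9 ± 6.12 CPM. Smarca4 averaged 54.0 ± 30.8 CPM in closed and 79.4 ± 24.5 CPM in open libraries (log2 fold change -0.49, SE 0.40, 95% interval -1.36 to 0.38). Ezh2 averaged 27 ± 8.49 CPM in closed and 28.1 ± 6.35 CPM in open libraries, a log2 fold change of -0.03 with an interval of -0.84 to 0.78. For Suz12, with more tags, the interval was narrower (-0.28 to 0.54).

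The second comparison set diabetic against normal dams over both regions. Smarca2 was the only member with an unadjusted p below 0.05, beside 4.55% of all genes. It passed the filter on low counts only through the diabetic open libraries, where it was high. Its p-value and the bound below come from those same values and are no separate support for a difference. It had 2 and 0 counts in diabetic closed, 62 and 28 counts in diabetic open, and none in the 4 normal libraries. In CPM it stood at 0.397 and 0 in diabetic closed and at 3.72 and 3.34 in diabetic open libraries. Its tags were thus found in 3 of the 4 libraries of diabetic dams, nearly all in open tissue. Set against the 3 counts that a count of 0 allows over the normal libraries, the rate over diabetic libraries was at least 23.2-fold higher, by counting error alone. Without library 13, which held 62 of the 92 counts, the bound was 13.7-fold (an alternative added after the data were seen). By edgeR the log2 fold change was 6.39 (95% interval 0.25 to 12.54, adjusted p = 0.999), and by DESeq2 the adjusted p = 0.721. The sums of endothelium markers (309 and 137 CPM) and primitive blood markers (925 and 1010 CPM, mostly Hba-x) were also highest in libraries 13 and 14. Most of the endothelium sums was Egfl7 (143 and 89.1 CPM) and Tek (106 and 30.1 CPM). Kdr and Flt1 of the same list were at 0 in both libraries, and Pecam1 was at 0 in library 14. The part of these cell types in the Smarca2 counts was not tested. In bulk tissue like this, fewer cells of a type and less RNA per cell cannot be told apart.

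Counts over the list stayed near those over all genes. Of 29 members, 16 had a positive and 13 a negative log2 fold change, with a median of 0.07, beside 0.04 over all genes, of which 52.7% were positive. By edgeR 0 members and 0 genes passed (0% of genes, smallest adjusted p = 0.938 over all genes and 0.999 over members), and DESeq2 called 0 members and 0.314% of genes. No member had non-overlapping libraries, beside 2.48% of genes on the higher and 1.15% on the lower side.

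After Smarca2, Smarcc1 had the smallest p. It had 109, 162, 167 and 168 CPM in diabetic libraries 15, 16, 13 and 14, against 127, 103, 115 and 94.0 CPM in normal libraries 11, 12, 09 and 10. In 3 of the 4 diabetic libraries it was above every normal one, and diabetic closed library 15 lay within the normal range. The log2 fold change was 0.45 (SE 0.22, 95% interval -0.04 to 0.94, edgeR adjusted p = 0.999), and it lay between 0.34 and 0.59 whichever library was left out.

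Smarca1 averaged 57.5 ± 37.3 CPM in diabetic and 27.5 ± 16.8 CPM in normal libraries (SD, n = 4 each). Its log2 fold change was 0.98 (SE 0.55, edgeR adjusted p = 0.999), 0.48 without library 13 and 1.76 without normal closed library 12. Smarca1 is X-linked, and without libraries 10 and 12, left out after the data were seen, the value was 1.91. Among PRC2 genes, Ezh2 averaged 32.0 ± 5.48 CPM in diabetic and 23.2 ± 5.52 CPM in normal libraries (log2 fold change 0.46, SE 0.37, 95% interval -0.35 to 1.26), and Eed 18.1 ± 3.49 and 12.9 ± 3.51 CPM (log2 fold change 0.48, SE 0.50). Suz12 averaged 379 ± 56.4 CPM in diabetic and 383 ± 49.1 CPM in normal libraries, with an interval of -0.44 to 0.37 for the log2 fold change.

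On the lower side Ezh1, Smarcd1 and Smarca4 had the smallest p. Ezh1 averaged 13.9 ± 3.15 CPM in diabetic and 25.0 ± 22.3 CPM in normal libraries, and its log2 fold change was -0.85 (SE 0.69, edgeR adjusted p = 0.999). Smarca4 had 28.2, 68.4, 61.7 and 70.3 CPM in diabetic and 28.8, 90.6, 69.9 and 116 CPM in normal libraries (log2 fold change -0.41, SE 0.39). Without library 12 the values were -0.06 for Ezh1 and -0.04 for Smarca4. For both genes the 2 highest values were in libraries 12 and 10, those with Xist, and the direction turned when these 2 libraries were left out, to 1.08 for Ezh1 and 0.27 for Smarca4. That alternative was chosen after the data were seen. Smarcd1 averaged 449 ± 24.9 CPM in diabetic and 508 ± 61.6 CPM in normal libraries (log2 fold change -0.20, SE 0.16). Of the other closure genes, Cecr2 averaged 54.0 ± 16.2 CPM in diabetic and 62.8 ± 8.75 CPM in normal libraries, and Jarid2 37.7 ± 6.75 and 33.5 ± 6.96 CPM.

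**Figure D3:**
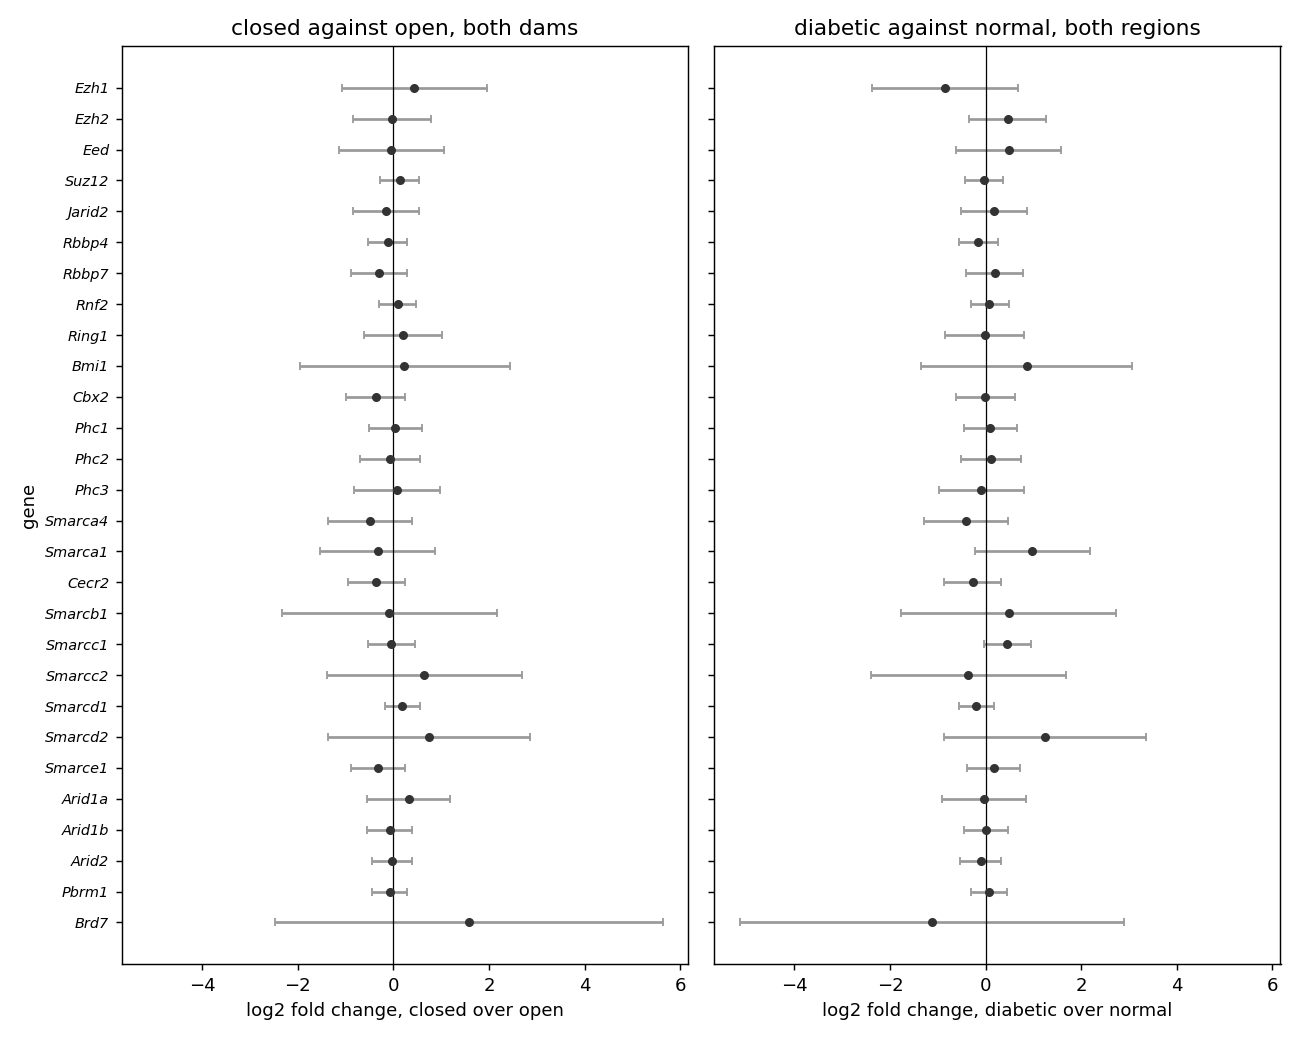
Log2 fold changes of 28 members with 95% intervals from the edgeR fit, closed over open tissue on the left and diabetic over normal dams on the right. Smarca2 is left out of both panels because its normal libraries are all at 0. Its interval for diabetic over normal dams, 0.25 to 12.54, does not include 0, and it passed the filter only through the diabetic open libraries. Every interval shown includes 0, and the intervals of Suz12, Rnf2, Smarcd1 and Pbrm1 are among the narrowest.

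**Figure D4:**
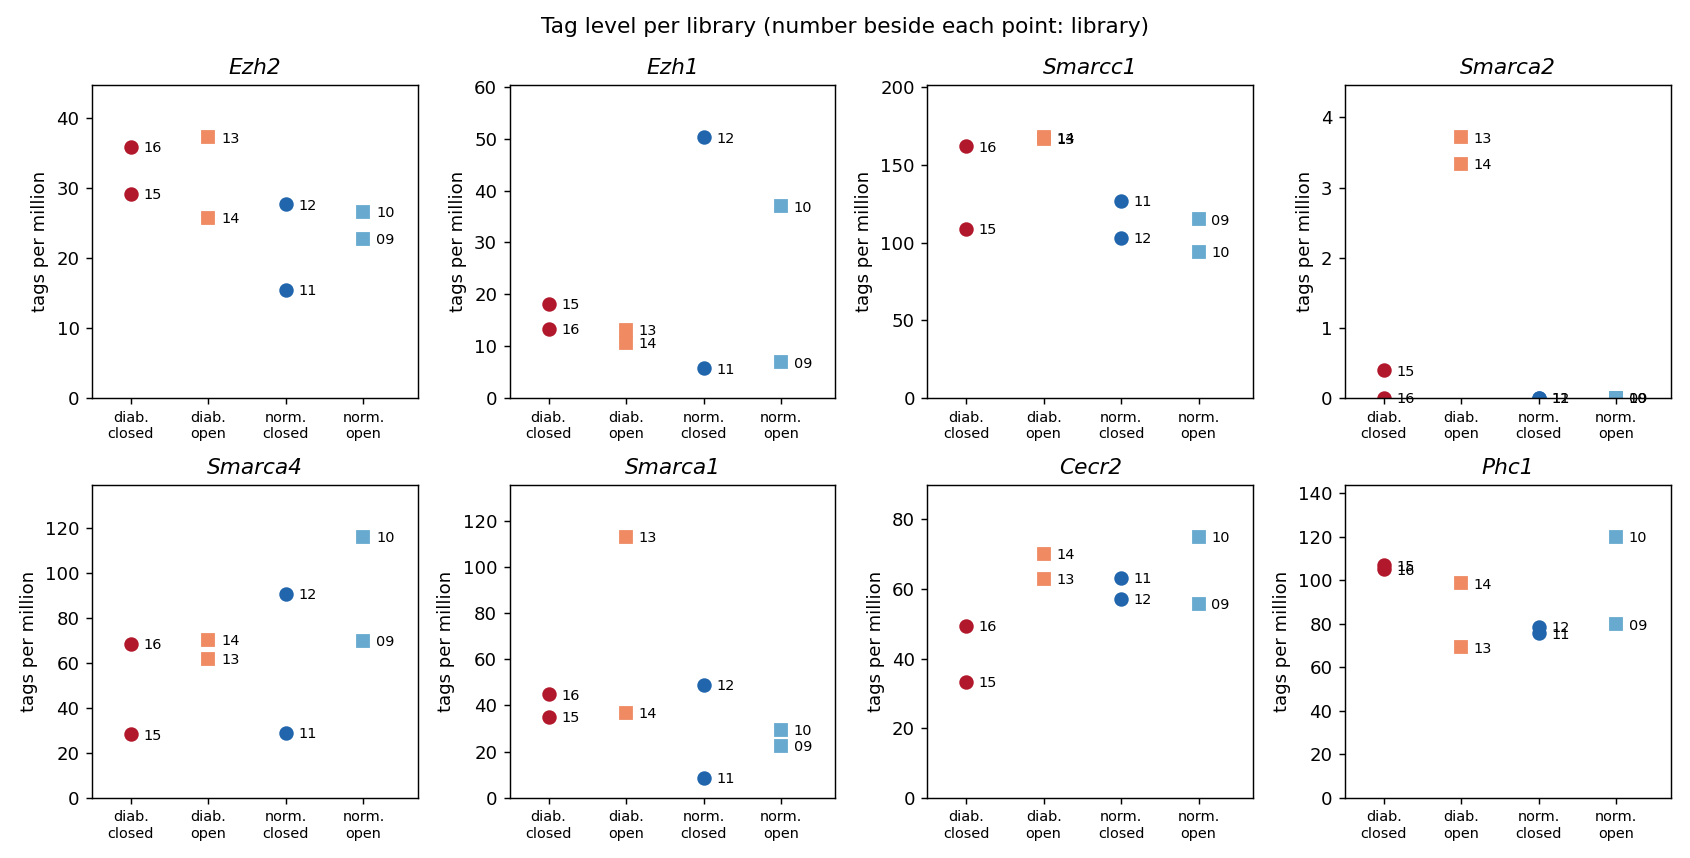
Level in CPM of 8 members in each library, by group, on linear axes from 0, with the library number beside each point. Ezh1 is highest in libraries 12 and 10, Smarca2 appears in libraries 13, 14 and 15 alone, Smarca1 is highest in library 13, and Cecr2 is lowest in the 2 diabetic closed libraries.

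The 4 groups were then compared in pairs of 2 libraries, where groups often fail to overlap. Within normal dams, Jarid2 and Phc1 were the members without overlap, both lower in closed tissue (13.6% of genes lay lower and 14.9% higher). Phc1 had 75.7 and 78.6 CPM in normal closed, against 79.8 and 120 CPM in normal open libraries. The smallest p in each direction belonged to genes whose libraries overlapped, Smarcd2 on the higher side (log2 fold change 1.72, SE 1.33) and Smarce1 on the lower (-0.39, SE 0.38). Smarcd2 had 13.2 and 4.59 CPM in normal closed, against 4.84 and 0.529 CPM in normal open libraries. Its log2 fold change was 0.75 without library 11, 0.86 without library 10 and 4.10 without library 09. Smarce1 had 48.6 and 85.1 CPM in normal closed, against 75.4 and 107 CPM in normal open libraries. Within diabetic dams, 5 members were higher and 6 lower in closed tissue without overlap, out of 29, beside 18.5% and 15.3% of genes. The 6 include Smarca2, which passed the filter only through the diabetic open libraries, so its place among them is no separate support for a difference. Here Phc1 was among the higher ones, with 107 and 105 CPM in diabetic closed, against 69.2 and 98.7 CPM in diabetic open libraries (log2 fold change 0.38, SE 0.34). Cecr2 was among the lower ones, with 33.3 and 49.5 CPM in diabetic closed, against 63.0 and 70.2 CPM in diabetic open libraries (log2 fold change -0.65, SE 0.39, edgeR adjusted p = 1.00).

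The effect of the dam was read in each region in the same way. In open tissue, 5 members were higher with diabetic dams without overlap and 0 lower, beside 17.4% and 15.1% of genes. The 5 were Smarca1, Smarca2, Smarcc1, Smarcd2 and Pbrm1, of which Smarca2 passed the filter only through the diabetic open libraries. Smarcc1 had 167 and 168 CPM in diabetic open, against 115 and 94.0 CPM in normal open libraries (log2 fold change 0.67, SE 0.32, edgeR adjusted p = 0.680). Smarcd2 had 18.5 and 7.40 CPM in diabetic open, against 4.84 and 0.529 CPM in normal open libraries. On the lower side Brd7 came first by p, at 1.5 and 0 CPM in diabetic open, against 0 and 7.76 CPM in normal open libraries (log2 fold change -2.29, SE 2.55). In closed tissue, Ezh2, Jarid2, Bmi1 and Phc1 were higher and Cecr2 and Smarcd1 lower with diabetic dams without overlap, beside 18.7% and 12.5% of genes. Phc1 had 107 and 105 CPM in diabetic closed, against 75.7 and 78.6 CPM in normal closed libraries (log2 fold change 0.44, SE 0.34). Cecr2 had 33.3 and 49.5 CPM in diabetic closed, against 63.2 and 57.2 CPM in normal closed libraries (log2 fold change -0.56, SE 0.39, edgeR adjusted p = 1.00). Comparisons that share a group share its libraries, so the Cecr2 values of diabetic closed tissue enter both of its differences.

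Whether the region difference itself differed between dams was tested as an interaction. By edgeR 0 members and 0% of genes passed, and 0 members had an unadjusted p below 0.05, beside 3.74% of genes. The smallest p among members belonged to Phc1 on the higher side (0.70 on the log2 scale, SE 0.48) and to Cecr2 on the lower side (-0.58, SE 0.54). By edgeR the 4 pairwise comparisons each gave 0 called members and 0% of genes. Before adjustment, p below 0.05 was reached by 0 members, beside 3.40% of genes within normal dams, 2.78% within diabetic dams, 7.22% in open and 1.17% in closed tissue. DESeq2 called 0 members in any of these 5 comparisons, beside 0.280% of genes within normal dams, 0.399% within diabetic dams, 1.69% in open tissue, 0.0170% in closed tissue and 0.187% in the interaction.

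Ratios of paralogues within a library do not depend on how libraries are scaled. For 7 pairs whose genes both passed the filter, the log2 ratio of tag counts (0.5 added to each) was compared by two-sided exact permutation tests, 14 in all, where 0.0286 is the smallest p that 4 against 4 libraries can give. The Rbbp4 to Rbbp7 ratio was 4.03, 3.83, 3.47 and 3.65 in diabetic libraries 15, 16, 13 and 14, against 4.09, 4.05, 4.18 and 4.05 in normal libraries 11, 12, 09 and 10. Every diabetic library lay below every normal one (difference -0.35, exact permutation p = 0.0286, adjusted p = 0.400). The gap between diabetic library 15 and the nearest normal libraries was narrow, and the Rbbp4 tag is the one found in other genes. The Ezh2 to Ezh1 ratio was -0.86 in normal closed library 12 and -0.47 in normal open library 10, and 0.67 to 1.72 in the other 6. Ezh1 tags thus outnumbered Ezh2 tags in the 2 libraries with Xist alone. The Smarcc1 to Smarcc2 ratio was 9.87 in diabetic open library 14, where Smarcc2 had 1 count, and 2 to 3.30 elsewhere. No pair passed after adjustment over the 14 tests, and 1 pair alone could not have passed: with the others as they are, the smallest p of 0.0286 gives an adjusted p of 0.400.

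**Figure D5:**
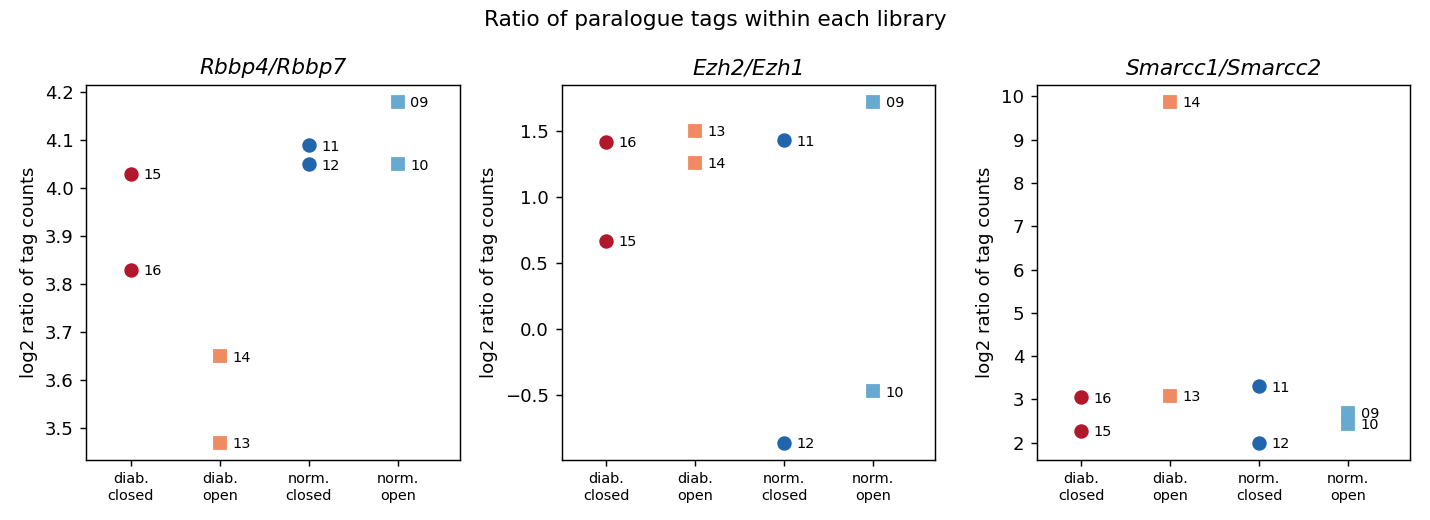
Log2 ratio of the tag counts of 3 paralogue pairs in each library, by group, with the library number beside each point and axes that do not start at 0. The Rbbp4 to Rbbp7 ratio is lower in all 4 diabetic libraries than in any normal one, and the Ezh2 to Ezh1 ratio is below 0 in libraries 12 and 10.

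Other genes of these pathways were read from 5 further lists. By edgeR 0 of their tested genes passed in closed against open tissue or in diabetic against normal dams, and DESeq2 also called 0. In closed against open tissue, positive fold changes were found for 13 of 23 other Polycomb genes (median log2 fold change 0.06), 5 of 9 other SWI/SNF genes (0.15), 2 of 7 other ISWI genes (-0.21), 10 of 12 genes of the NuRD and CHD remodellers (0.24) and 8 of 12 trithorax and demethylase genes (0.27), beside 55.5% of all genes. Bap1, which removes the PRC1 ubiquitin mark, had 117, 188, 58.2 and 79.2 CPM in closed and 200, 164, 104 and 188 CPM in open libraries (log2 fold change -0.62, SE 0.28, edgeR adjusted p = 1.00). Wdr5, of the trithorax and demethylase list, was lower in closed tissue without overlap (log2 fold change -0.67, SE 0.26). So was Rybp, of the other Polycomb genes (-0.31, SE 0.24), beside 1.07% of all genes.

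In diabetic against normal dams the same lists had 10 of 23 (median -0.06), 6 of 9 (0.38), 4 of 7 (0.04), 8 of 12 (0.13) and 7 of 12 (0.01) positive fold changes, beside 52.7% of all genes. Hdac1, a histone deacetylase of NuRD, had 47.2, 42.6, 57.8 and 56.1 CPM in diabetic and 17.3, 30.7, 2.76 and 33.5 CPM in normal libraries, without overlap (log2 fold change 1.28, SE 0.60, edgeR adjusted p = 0.999). Bcl7a, a SWI/SNF subunit, also did not overlap, with 6.35, 13.7, 10.9 and 9.67 CPM in diabetic and 3.92, 3.11, 0 and 0.176 CPM in normal libraries (log2 fold change 3.76, SE 1.59, edgeR adjusted p = 0.999). Phf19, a PRC2 partner, lay the other way. It had 0.595 CPM in diabetic closed library 15 and 0 in the other 3 diabetic libraries. Normal libraries had 4.27, 5.33, 1.28 and 7.94 CPM (log2 fold change -5.70, SE 2.17, edgeR adjusted p = 0.999). Phf19 passed the filter on low counts only through normal libraries, where it was high. Its fold change comes from those same values and is no separate support for a difference. Genes of these lists were named for a small p-value, and 2.48% of all genes were higher and 1.15% lower without overlap.

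A list of 14 genes known as Polycomb targets had few tags. No count was found for 8 of them, which were Cdkn2b and 7 posterior Hox genes, and 3 passed the filter. Gata4 and Gata6 are also the genes that make up most of the heart and endoderm sum of library 13. Gata4 stood at 87.7 CPM in diabetic open library 13 and at no more than 4.36 CPM in the other 7, and Gata6 at 55.4 and no more than 3.57 CPM. In diabetic against normal dams DESeq2 called both (adjusted p = 0.00299 and 0.0443), and neither without library 13 (adjusted p = 1.00 each). By edgeR neither passed (adjusted p = 0.999). Both genes passed the filter on low counts only through diabetic libraries, where they were high. The DESeq2 calls come from those same values and are no separate support for a difference. Cdkn1c, a cell cycle inhibitor, had 5.75 and 9.49 CPM in diabetic closed, 21.9 and 20.7 CPM in diabetic open, 6.77 and 7.40 CPM in normal closed, and 8.39 and 11.5 CPM in normal open libraries.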

How the data were processed

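The authors deposited whole-number tag counts for each gene symbol, in 1 file per library. Per the labels' protocols, 7 ng of Trizol RNA went into each barcoded SOLiD SAGE library. The submitters' processing notes name the build mm9. Not given in the sources used here are the aligner, counter, annotation, strand setting and handling of tags that fit several genes, so overlapping and antisense genes are uncertain. The numbers in the sample titles name the libraries.

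The software was edgeR 4.0.16, DESeq2 1.42.0 and limma 3.58.1, run under R 4.3.3. The filter on low counts was filterByExpr (minimum count 10, minimum total 15). Libraries were scaled by TMM (factors 0.9751 to 1.04) in the tests and by their totals in the printed levels. Region and dam were tested in an additive model, and pairwise differences and the interaction in a model of 4 groups. Tests were quasi-likelihood F tests in edgeR, and p-values were adjusted by Benjamini-Hochberg over all 11779 genes, with a threshold of 0.05. Standard errors and 95% intervals follow from the F statistic. The tests were tried on simulated counts. Total counts of 5041586 to 16655583 make 1 count worth 0.0600 to 0.198 CPM. Bounds use 3 counts over a group, and cover counting error only. Replicates did not agree within sampling noise (chi-square per degree of freedom 29.5 to 122), so each counted as 1. Tags were read from GENCODE M21 transcripts, and no coordinates are given since that build is not the build of the counts.

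The members and lists were chosen with earlier results of these data known. Values in every library are given for members with the smallest p in each direction (3 in the additive comparisons, 1 in the others), for Cecr2, Smarcc1, Smarca4 and Jarid2, and for the PRC2 core, and up to 4 genes per further list are named. Other values were singled out after they were seen. Symbols matched for all further genes but Kmt2d. Alternatives were other scalings, no filter, DESeq2, limma-voom, and each library left out.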

Additional observations from a re-analysis of the deposited data

Results flagged for a closer look

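Samples far from the others of a set of 4 were looked for with Dixon's criterion in closed, open, diabetic and normal libraries, for each member. It marked 15 of 121 sets, and the sets share libraries. Chance marks about 1 in 20 for normally distributed values only, so no excess can be read from this count. A set whose other values are all 0 is marked at any count. Suz12 stood at 444 CPM in open library 09 (335 to 351 CPM in the other open libraries) and at 463 CPM in diabetic library 16 (345 to 355 CPM). Phc1 stood at 120 CPM in normal library 10 (75.7 to 79.8 CPM), and Smarca4 at 116 CPM in open library 10 (61.7 to 70.3 CPM). Smarca1 stood at 113 CPM in library 13, apart from the other open (22.6 to 36.9 CPM) and the other diabetic libraries (35.1 to 44.9 CPM). Library 15 was marked low for Smarcc1 among diabetic libraries (109 CPM, 162 to 168 CPM in the others) and for Arid1b among closed ones (88.1 CPM, 112 to 117 CPM). Smarcc2 stood at 0.119 CPM in library 14, against 17.3 to 19.8 CPM in the other open and 19.5 to 22.4 CPM in the other diabetic libraries.

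Marks at a few counts were Smarcd3 at 3.57 CPM in library 15 among both closed and diabetic libraries (0 to 0.419 CPM in the others), Smarca2 at 0.397 CPM in closed library 15, and Cbx8 at 1.12 CPM in closed library 16 and 0.691 CPM in normal library 09, each with the other 3 at 0.

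Phc1 was higher in both closed libraries than in both open ones with diabetic dams, and lower in both with normal dams. The difference between these effects was 0.70 on the log2 scale, and the edgeR interaction test did not pass (adjusted p = 1.00).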

How the results depend on the processing

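No setting called a member in any of the 7 comparisons. Over all genes, edgeR called 0 in each, and the counts moved under 3 settings and when a library was left out. In closed against open tissue over both dams, no filter gave 29 calls and DESeq2 9, and left-out libraries gave 0 to 3. In diabetic against normal dams over both regions these were 89, 37 and 0 to 2. Within normal dams they were 22, 33 and 0 to 18, and within diabetic dams 41, 47 and 0 to 21, with 1 by limma-voom. In open tissue they were 138, 199 and 0 to 61, with 1 by limma-voom, and in closed tissue 11, 2 and 0 to 3. The interaction gave 23, 22 and 0 to 9, with 1 by limma-voom. The cause was not tested. The number of paralogue ratios past the threshold was 0 under each alternative. Its smallest adjusted p was 0.2 to 0.6 by exact permutation with a library left out.

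All 22 fold changes of the named members kept their direction under the other scalings, no filter, DESeq2 and limma-voom. With a library left out, 2 values turned, and 174 did not. Those that turned were Arid1a in closed against open tissue (-0.01 to 0.77) and Brd7 in diabetic against normal open tissue (-7.70 to 5.69), the gene with the short tag. With libraries 10 and 12 left out, an alternative chosen after the data were seen, Ezh1 was at 1.08, Smarca4 at 0.27 and Brd7 in open tissue at 5.75. Other scalings moved the sign of up to 4 of 29 members within normal dams and of up to 2 elsewhere. The numbers in the sample titles each name 1 library and do not show whether closed and open tissue came from the same embryos. No paired analysis was run, so any such pairing was left out of the tests. Members under about 10 CPM had wide intervals, and so had several above that level. In closed against open tissue these included Smarcc2 (-1.39 to 2.69), Ezh1 (-1.08 to 1.96) and Smarca4 (-1.36 to 0.38). Only large differences could be detected for such members.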
